A study of Mus musculus with 10 samples.

Results

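The genes that build cholesterol and fatty acids, together with the sterol regulatory element-binding proteins (SREBP) that control them, were described in mouse cortex. The set holds 34 genes chosen by name: 19 enzymes of cholesterol and isoprenoid synthesis, 7 genes for SREBP and its control, 7 enzymes of fatty acid synthesis and 1 carrier of sterols. They are 34 of the 53700 genes in the count tables, and all 34 had more than 10 reads over the libraries, a filter that left 19268 genes for testing.

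RNA was measured by QuantSeq 3′ mRNA sequencing, in which a transcript gives a read near its 3′ end whatever its length, in the cortex of 10 female mice aged 4 months. All 10 mice carried 5XFAD, human transgenes with familial Alzheimer's disease mutations expressed in neurons from Thy1 sequences, and no group without amyloid was sequenced. The comparison asks what loss of the E3 ligase IDOL, the product of Mylip, in neurons changes in this model. The 5 mice labelled 5XFAD;Neu cKO (cKO from here on) carried floxed Idol (Mylip) with Camk2a-Cre, a driver active mainly in forebrain excitatory neurons, and the 5 mice labelled 5XFAD were littermates given as wild type for Camk2a-Cre. Deletion was therefore limited to a part of the cells sampled, whereas the RNA came from whole cortex, and in such bulk samples fewer cells of a type and less RNA per cell cannot be told apart.

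Cholesterol does not cross from blood to brain, so the brain makes its own. Acetyl-CoA is joined into mevalonate, mevalonate into isoprenoids and squalene, and squalene is closed into a ring and trimmed to cholesterol. When membrane sterol is low, SCAP escorts SREBP from the endoplasmic reticulum to the Golgi, where the site-1 and site-2 proteases release its active part. INSIG proteins hold the SCAP-SREBP complex back when sterol is plentiful. SREBP2 acts chiefly on sterol genes and SREBP1 chiefly on fatty acid genes. IDOL marks lipoprotein receptors for breakdown, which ties it to the sterol a cell takes up. Oligodendrocytes use both pathways heavily for myelin, and astrocytes make much of the sterol supplied to adult neurons.

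SREBP acts on its target genes through elements in their promoters, and a few stretches are shown for that reason. The letters TCACNCCAC, the core of the sterol response element, and CCAAT, bound by the partner factor NF-Y, were searched on both strands in the 250 bases before the start of each gene's canonical transcript (GRCm39). Capitals mark the matches, and a CCAAT on the other strand reads ATTGG. Hmgcs1 is shown up to the first exon of any of its transcripts. Scd1 is shown over the whole window. Fasn and Acaca are shown over 30 bases around their match, and other Fasn transcripts have exons there. The windows of Fasn, Acaca, Scd1 and Scd2, among others, lie inside the annotated gene. Other transcripts of these genes start further upstream, and the bases before those starts were not searched.
Hmgcs1 (chr13:120151732-120151914, plus strand): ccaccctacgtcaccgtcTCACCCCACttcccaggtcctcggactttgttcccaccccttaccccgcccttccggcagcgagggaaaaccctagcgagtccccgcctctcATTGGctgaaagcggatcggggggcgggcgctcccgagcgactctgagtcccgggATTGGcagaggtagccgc
Fasn (chr11:120715062-120715091, minus strand): cgcgcgggcaTCACCCCACcggcggcggcg
Acaca (chr11:84063839-84063868, plus strand): cacaggcacacTCACACCACaccctgggtg
Scd1 (chr19:44396341-44396590, minus strand): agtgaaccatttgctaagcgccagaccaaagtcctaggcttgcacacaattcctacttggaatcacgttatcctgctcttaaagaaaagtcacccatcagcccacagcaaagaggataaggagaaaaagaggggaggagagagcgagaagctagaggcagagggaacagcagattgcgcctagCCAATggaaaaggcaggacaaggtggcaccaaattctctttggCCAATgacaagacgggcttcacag

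The sterol response element core was found before 3 of the 34 genes (8.82%), Hmgcs1, Fasn and Acaca, against 243 of 21757 protein-coding genes (1.12%). Its first base lay 232 bases before the start in Hmgcs1, 146 in Fasn and 98 in Acaca, where it sits in a run of CA repeats. The CCAAT letters stood before 20 of the 34 genes (58.8%), against 36.5% of protein-coding genes, and before 9 of the 11 enzymes that act from squalene onwards (81.8%). Scd1 held CCAAT at 67 and 24 bases before its start and no sterol response element core, and Scd2 held neither in its window. The GC letters GGGCGG were present before 19 genes (55.9%), against 36.3%. A match is only a run of letters and says nothing of binding in these mice. Only these exact letters were searched, so the lack of a match does not show that a gene lacks a sterol response element.

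The libraries held 4320504 to 7466192 reads on genes in the 5XFAD group and 5148499 to 7246659 in the cKO group. Of these reads, 0.214% to 0.227% and 0.216% to 0.250% fell on the 34 genes. Levels are given as CPM, reads per 1000000 reads on genes, scaled by TMM factors of 0.908 to 1.03 and 0.972 to 1.06. Mylip, the floxed gene, was not lower in libraries labelled cKO: it had 50, 53, 108, 50 and 45 reads in 5XFAD and 77, 78, 148, 112 and 50 in cKO (log2 fold change 0.39 ± 0.25 SE, adjusted p = 0.777, edgeR). These reads come from the 3′ end, and the exons removed are not given in the sources used here, so this neither checks nor contradicts the deletion where those exons lie elsewhere. The groups are named by their labels throughout. Fold changes compare libraries labelled cKO with libraries labelled 5XFAD, and a negative value means lower in cKO.

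Levels differed far more between genes than between groups. Scd2, a stearoyl-CoA desaturase abundant in brain, took 34.9% of all reads on the set, Hmgcs1 12.6%, Msmo1 4.59% and Fasn 3.82%. At the other end Idi1 had 30 reads in all libraries together. The remaining genes had between 472 (Tm7sf2) and 4082 (Srebf2) reads in total.

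**Figure D1:**
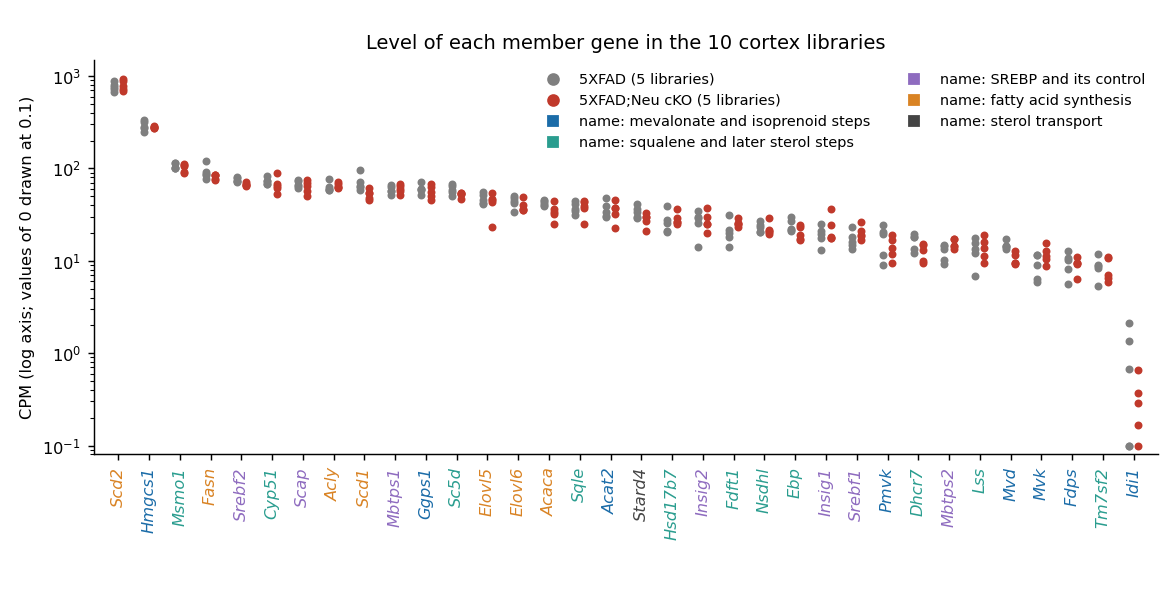
CPM (log axis) of the 34 genes in each of the 10 libraries, with 5 points for 5XFAD (grey) and 5 for cKO (red) per gene, genes ordered by mean level and names coloured by role. Scd2 and Hmgcs1 stood above the rest, Idi1 lay far beneath the rest, and grey and red points overlapped for every gene but Mvd.

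None of the 34 genes passed an adjusted p of 0.05 in either direction (edgeR's quasi-likelihood test, Benjamini-Hochberg over 19268 genes). Adjusted p ran from 0.254 (Scd1) to 0.998 (Sqle). Over all genes the same test called 42, or 0.218%, with 0.161% lower and 0.0571% higher. At an unadjusted p under 0.05 the set had 3 genes lower (Scd1, Mvd, Acaca) and 0 higher, 8.8% of its genes, against 7.95% of all genes, of which 4.01% were lower and 3.94% higher. DESeq2 also called 0 of the 34, although it gave no adjusted p to 12 of them. The share past the unadjusted threshold is thus close to the background, and nothing about the set follows from that count.

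Of the 34 genes, 22 had a negative log2 fold change against 50.1% of all genes, while with scaling by library size alone 16 did, against 38.0% of all genes. The median log2 fold change of the set was -0.07 with TMM scaling and 0.03 with library size alone, and that of all genes was 0.00 and 0.09. Relative to the median of all genes, 22 of the 34 lay lower under either scaling. A change of scaling moves all genes by nearly the same amount, so this sameness was built in and is no further check. Only for Mvd did the 5 cKO values and the 5 values of 5XFAD not overlap, as for 1.3% of all genes.

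**Figure D2:**
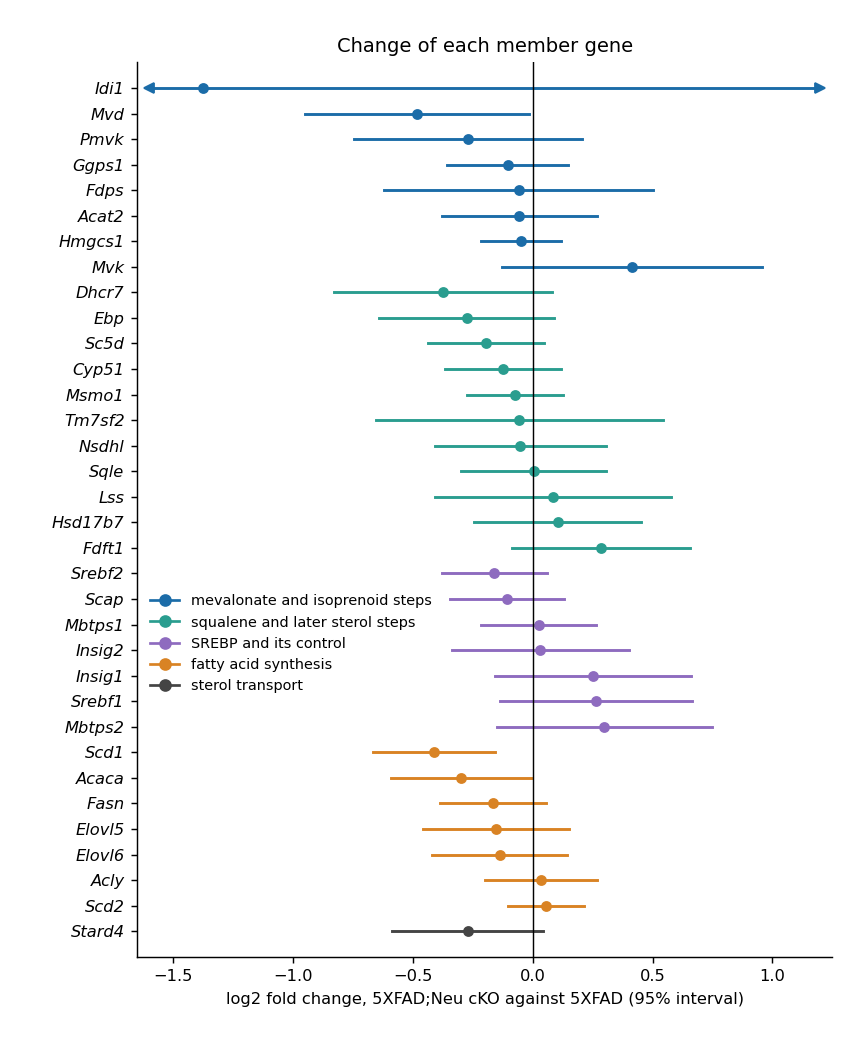
Log2 fold change of each gene, cKO against 5XFAD, with its 95% confidence interval from the edgeR fit, coloured by role and ordered within role. Intervals of Scd1, Mvd and Acaca lie left of 0, those of the other 31 include it, and the arrows on Idi1 mark an interval from -4.05 to 1.30 that runs past the axis.

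Along the mevalonate and isoprenoid steps, 7 of 8 genes had negative log2 fold changes with a median of -0.08, and 4 of 8 did with library size alone. None passed the adjusted threshold. Mvd encodes mevalonate diphosphate decarboxylase, which makes isopentenyl diphosphate, and lies at chr8:123160336-123170324 (GRCm39, minus strand). It measured 17.3, 14.1, 14.4, 14.4 and 13.5 CPM in 5XFAD and 12.9, 9.56, 9.19, 11.6 and 9.48 CPM in cKO. The highest cKO library stood just under the lowest 5XFAD library, so the groups did not overlap. Mean levels were 10.6 ± 1.63 CPM in cKO and 14.7 ± 1.47 in 5XFAD (SD, n = 5 each). The log2 fold change was -0.48 ± 0.23 SE (95% interval -0.95 to -0.02), with an unadjusted p of 0.0428 and an adjusted p of 0.606. The exact two-sided permutation test of mean log2 CPM gave p = 0.00794, the smallest that 5 against 5 allows. Any gene whose groups do not overlap gets this value, so it adds nothing to the lack of overlap. These levels rest on 52 to 106 reads per library, and the unadjusted p stayed under 0.05 in 4 of the 10 fits that left out a library.

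Hmgcs1, the cytosolic HMG-CoA synthase (chr13:120151915-120170470), measured 332, 319, 278, 274 and 248 CPM in 5XFAD and 276, 282, 289, 271 and 283 CPM in cKO. The cKO values fell inside the range of 5XFAD and were closer together, with an SD of 6.62 CPM against 34.8. The difference in log2 level was -0.05 (95% interval -0.22 to 0.12, adjusted p = 0.963), one of the tightest intervals of the set, or a fold between 0.861 and 1.08. Ggps1, which makes the geranylgeranyl diphosphate attached to small GTPases, measured 51.4, 59.1, 60.3, 59.7 and 72.0 CPM in 5XFAD and 49.7, 45.3, 63.3, 67.3 and 55.2 CPM in cKO. Its groups overlapped, with a log2 fold change of -0.10 (adjusted p = 0.931). With library size alone Hmgcs1 turned to 0.04.

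Acat2, which joins acetyl-CoA units, was at 34.7 CPM in cKO and 36.0 in 5XFAD and had a log2 fold change of -0.06, and Pmvk and Fdps, the kinase before Mvd and the farnesyl diphosphate synthase after it, had -0.27 and -0.06. Mvk, mevalonate kinase, was the one gene of the 8 with a positive value, 0.41 (95% interval -0.13 to 0.96). Idi1, the isomerase between Mvd and Fdps, had 0, 9, 5, 0 and 6 reads in 5XFAD and 0, 2, 5, 1 and 2 in cKO, too few to place it. Its place among the lowest genes goes with how its 3′ end can be aligned, described with the read counting.

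From squalene onwards, 7 of 11 genes had negative log2 fold changes (median -0.06) and 4 of 11 did with library size alone. None reached an unadjusted p of 0.05. Msmo1, the methylsterol oxidase, measured 115, 115, 100.1, 102 and 102 CPM in 5XFAD and 109, 111, 106, 91.7 and 90.1 CPM in cKO. The upper 3 cKO libraries sat within the range of 5XFAD and the lower 2 beneath it. The log2 fold change was -0.07 (95% interval -0.28 to 0.13, adjusted p = 0.950). Cyp51, the lanosterol demethylase, measured 83.1, 68.0, 73.5, 72.9 and 67.1 CPM in 5XFAD and 88.8, 53.3, 61.1, 67.8 and 64.4 CPM in cKO. The highest and the lowest library both belonged to cKO, and the log2 fold change was -0.12 (adjusted p = 0.897).

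The first steps of this branch had values at or above 0. Fdft1, squalene synthase, was at 25.5 CPM in cKO and 21.0 in 5XFAD (0.29, adjusted p = 0.787). Sqle, the epoxidase, was at 37.9 and 37.6 CPM (0.00), and Lss, the cyclase, at 13.9 and 13.1 CPM (0.08). The steps that finish the sterol were negative without passing any threshold, namely Dhcr7 (-0.38, adjusted p = 0.748), Ebp (-0.28) and Sc5d (-0.20), which set and remove double bonds late in the pathway. Tm7sf2 (-0.06), Nsdhl (-0.05) and Hsd17b7 (0.11), which reduce and demethylate the ring, lay near 0. That early and late steps differ was not tested.

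**Figure D3:**
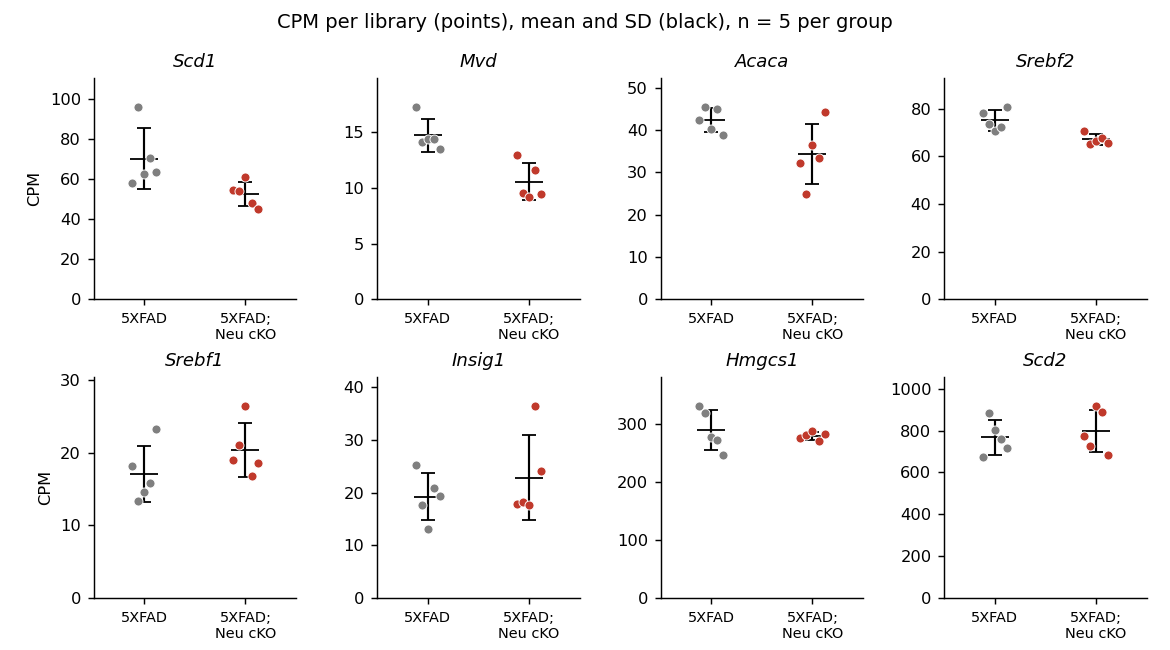
CPM in each library for 8 genes of the set, with the mean (long bar) and SD (short bars) of 5 libraries per group. Mvd shows no overlap between groups, Scd1, Acaca and Srebf2 overlap in part, and Srebf1, Insig1, Hmgcs1 and Scd2 overlap widely.

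Of the 7 genes for SREBP and its control, 2 had negative log2 fold changes and 5 positive, under TMM scaling and with library size alone. The median was 0.03. Srebf2 (chr15:82031382-82093201), the source of SREBP2, measured 78.3, 73.4, 70.5, 72.3 and 80.8 CPM in 5XFAD and 70.7, 65.1, 66.4, 67.6 and 65.8 CPM in cKO. Only the highest cKO library reached the lowest of 5XFAD. The means were 67.1 ± 2.19 and 75.1 ± 4.31 CPM (SD, n = 5 each), a log2 fold change of -0.16 ± 0.11 SE. The exact two-sided permutation test, not adjusted for the number of genes, gave p = 0.0159. The edgeR fit, which shares the spread over all genes, gave an unadjusted p of 0.147 and an adjusted p of 0.812.

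Srebf1, the source of SREBP1, measured 18.2, 13.4, 14.7, 15.8 and 23.3 CPM in 5XFAD and 19.1, 21.2, 26.5, 16.8 and 18.7 CPM in cKO. The groups overlapped, and the log2 fold change was 0.26 (95% interval -0.14 to 0.66, adjusted p = 0.853). Scap, the escort that carries SREBP to the Golgi, measured 66.1, 75.8, 72.5, 61.7 and 65.3 CPM in 5XFAD and 65.1, 50.4, 70.2, 56.5 and 74.1 CPM in cKO. Its cKO values spread to both ends of the 5XFAD range and beyond the lower one, and the log2 fold change was -0.11 (adjusted p = 0.917).

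Insig1, the retention protein that is itself an SREBP target, measured 25.2, 17.6, 13.2, 20.9 and 19.3 CPM in 5XFAD and 17.8, 18.2, 17.6, 36.5 and 24.1 CPM in cKO. Its log2 fold change of 0.25 (adjusted p = 0.868) came to 0.02 without cKO replicate 4, the library at 36.5 CPM. Insig2, the second retention protein, measured 34.3, 14.1, 29.1, 29.6 and 25.8 CPM in 5XFAD and 37.0, 24.8, 29.7, 25.1 and 20.1 CPM in cKO. The groups overlapped, with a log2 fold change of 0.03 (adjusted p = 0.990). The proteases that cut SREBP, site-1 (Mbtps1) and site-2 (Mbtps2), had log2 fold changes of 0.02 and 0.30, the latter on 39 to 119 reads per library.

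Among the enzymes of fatty acid synthesis, 5 of 7 had negative log2 fold changes with either scaling, with a median of -0.15 under TMM. Scd1 (chr19:44382894-44399154, minus strand), which puts the double bond into stearate to make oleate, had the smallest p of the set. It measured 58.1, 96.2, 62.5, 70.5 and 63.7 CPM in 5XFAD and 54.4, 54.3, 61.1, 48.3 and 45.3 CPM in cKO. Of the cKO libraries, 4 lay under every 5XFAD library and 1 lay among them. The means were 52.7 ± 6.12 CPM in cKO and 70.2 ± 15.2 in 5XFAD (SD, n = 5 each).

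The log2 fold change of Scd1 was -0.41 ± 0.13 SE (95% interval -0.67 to -0.16), a level lower by 24.8%. Its unadjusted p of 0.00213 ranked 161 of 19268 genes, and the adjusted p was 0.254 with edgeR and 0.139 with DESeq2, so it did not pass. The exact two-sided permutation test gave p = 0.0159. Leaving out a library in turn kept the unadjusted p under 0.05 in 10 of 10 fits, with the log2 fold change between -0.47 and -0.28. The weakest of these left out 5XFAD replicate 2, whose 96.2 CPM stood above the others.

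Scd2 (chr19:44281613-44295303, plus strand), the neighbouring gene for a related desaturase, was by far the most abundant gene of the set. It measured 672, 886, 804, 759 and 716 CPM in 5XFAD and 773, 726, 919.6, 887 and 683 CPM in cKO. The groups overlapped over most of their range, and the log2 fold change was 0.06 (95% interval -0.10 to 0.21, adjusted p = 0.950). Reads on Scd1 per 100 reads on Scd2, a ratio that no scaling touches and that was chosen after the values were seen, were 8.65, 10.9, 7.77, 9.29 and 8.90 in 5XFAD. In cKO the ratio was 7.04, 7.48, 6.64, 5.45 and 6.63. All 5 cKO libraries lay beneath the lowest 5XFAD library, although the groups overlapped for Scd1 alone. How many other pairs of genes separate this way was not counted, so the ratio is given as a description with no test.

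Acaca (chr11:84020476-84292477), the acetyl-CoA carboxylase that makes malonyl-CoA, measured 42.4, 45.5, 40.4, 44.9 and 38.8 CPM in 5XFAD and 32.3, 24.8, 36.5, 33.5 and 44.4 CPM in cKO. In cKO, 4 libraries were under all of 5XFAD and replicate 5 was among them. The means were 34.3 ± 7.08 and 42.4 ± 2.88 CPM (SD, n = 5 each), a log2 fold change of -0.30 ± 0.15 SE. The unadjusted p was 0.0435, the adjusted p 0.611 and the exact permutation p 0.0397. The unadjusted p held under 0.05 in 4 of the 10 fits that left out a library.

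Fasn, the fatty acid synthase (chr11:120696672-120715995, minus strand), measured 87.8, 119, 84.1, 91.0 and 77.4 CPM in 5XFAD and 76.8, 85.7, 85.7, 85.3 and 75.3 CPM in cKO. In cKO, 3 libraries lay within the 5XFAD range and 2 just beneath it, with a log2 fold change of -0.17 (95% interval -0.39 to 0.06, adjusted p = 0.800). Without 5XFAD replicate 2, the library at 119 CPM, it was -0.06. Acly, which supplies cytosolic acetyl-CoA, was at 64.9 and 63.4 CPM (0.03). The elongases Elovl5 and Elovl6 had -0.15 and -0.14, and Elovl5 came to 0.01 without cKO replicate 5, its lowest library.

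Stard4, which carries sterol between membranes, measured 34.1, 29.1, 29.8, 40.8 and 36.1 CPM in 5XFAD and 27.1, 29.4, 33.0, 21.2 and 29.7 CPM in cKO. The groups overlapped in their middle, with a log2 fold change of -0.27 (adjusted p = 0.729).

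Within groups the genes of the set showed little shared variation. With group means removed, the median Pearson r over 561 pairs of genes in the 10 libraries was 0.03, and 297 pairs were positive. It was 0.08 over pairs of sterol enzymes and 0.08 over the 21 pairs of fatty acid genes. All pairs share libraries and depth, and counts of the lower genes are noisy, so these are descriptions. The highest were Mvd with Cyp51 (0.88) and Fasn with Scd1 (0.82), and the lowest was -0.89. In 5XFAD replicate 2, which had the lowest TMM factor (0.908), the TMM-scaled level was the highest of all 10 libraries for 11 of the 34 genes. With library size alone its sum over the set was 2272 CPM, beneath cKO replicates 3 and 4 at 2501 and 2369 CPM. The TMM-scaled level was the lowest for 6 genes in cKO replicate 5. That library also had the highest sum of 4 choroid plexus markers, 138.8 CPM against 12.5 to 37.4 in the other cKO libraries and 27.6 to 73.5 in 5XFAD. A single marker made up 132.9 CPM of this sum, and some others of the 4 were higher in a 5XFAD library. The part of choroid plexus in these levels was not tested.

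Summed over the 19 sterol and isoprenoid enzymes, the level was 786 to 906 CPM in 5XFAD and 763 to 838 in cKO, dominated by Hmgcs1. The 7 fatty acid genes summed to 1037 to 1297 and 969.8 to 1264 CPM, dominated by Scd2, and the 7 SREBP genes to 267 to 292 and 265 to 282 CPM. Ranges overlapped in each. For the sum over all 34 genes the log2 ratio of group means was -0.04 with TMM scaling and 0.05 with library size alone.

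**Figure D4:**
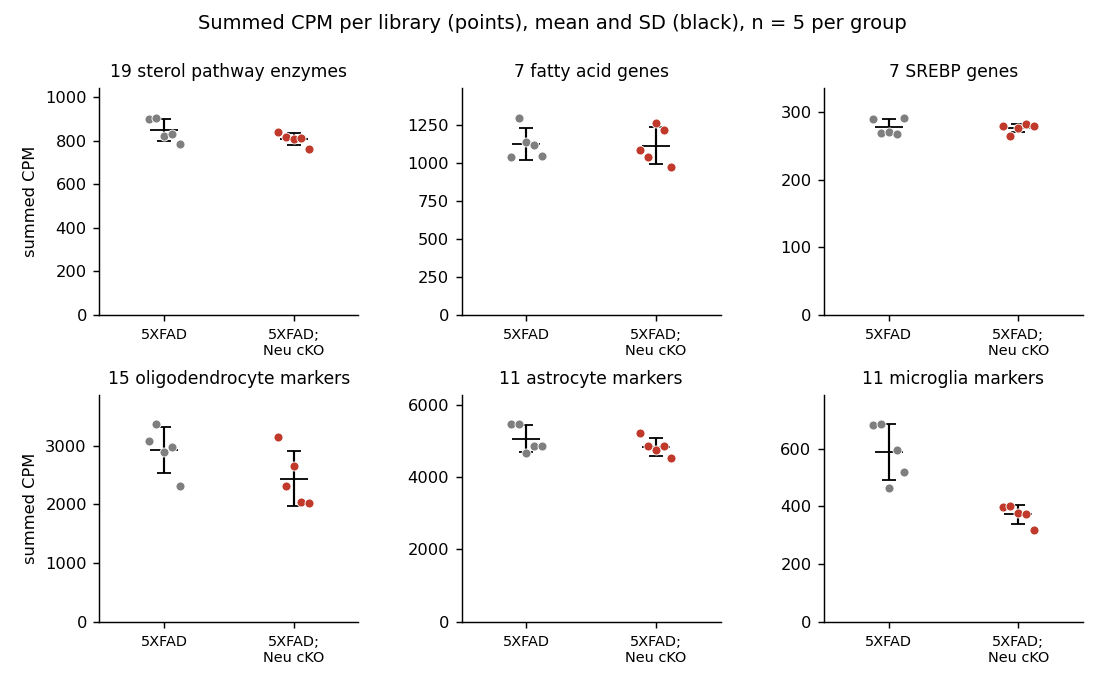
Summed TMM-scaled CPM in each library for 3 groups of the set (top) and for 3 lists of cell type markers (bottom), with mean and SD of 5 libraries per group. The upper sums overlap between groups, oligodendrocyte and astrocyte markers overlap too, and microglia markers do not, at 464 to 684 against 319 to 403 CPM.

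Marker genes of the cell types in cortex were measured beside the set. All 15 oligodendrocyte markers had negative log2 fold changes (median -0.28) and 1 passed, Mal (-0.48, adjusted p = 0.0427). Mal did not pass in 8 of the 10 fits that left out a library, with an adjusted p of 0.350 at most, without 5XFAD replicate 2. Their sum was 2313 to 3363 CPM in 5XFAD and 2032 to 3144 in cKO. The most abundant was Mbp, at 837 to 1368 and 850.4 to 1247 CPM. The highest sum, 3363 CPM, was in 5XFAD replicate 2, which was also highest for Scd1 and Fasn. The next highest sum, 3144 CPM, was in cKO replicate 1, where Scd1 and Fasn were at 54.4 and 76.8 CPM. Both lay beneath every 5XFAD library, Fasn only just, with the lowest at 77.4 CPM. The lowest sums, 2033 and 2032 CPM, were in cKO replicates 4 and 5. Scd1 was also lowest in these libraries, at 48.3 and 45.3 CPM, with Fasn at 85.3 and 75.3 CPM. Of 11 microglia markers, 11 were negative and 6 passed (5 with DESeq2), led by Ctss at 121 to 192 and 58.6 to 93.7 CPM. Of 11 astrocyte markers, 10 were negative and 1 passed (Gfap), and their sum was 4657 to 5455 and 4516 to 5204 CPM, most of it Slc1a2 and Aldoc. Excitatory neuron markers summed to 4054 to 4946 and 3927 to 4453 CPM, most of it Nrgn and Camk2a. Of these 7, 4 were negative and 3 positive, and none passed. Neurod2 had the smallest p of them (log2 fold change 0.32, adjusted p = 0.274, edgeR). Its cKO values all lay above those of 5XFAD, and 1.3% of all genes had groups that did not overlap. No marker of these 4 lists was at 0 in any library, and all 10 libraries thus held the glial and neuronal markers of cortex. Red blood cell markers summed to 6.34 to 46.5 CPM in 5XFAD and 42.5 to 181 in cKO, with 4 of 4 higher and 2 called. These were Hbb-bs and Hba-a1, and the robust fit called neither (adjusted p = 0.482 and 0.413), nor did DESeq2, which gave Hbb-bs 0.153 and Hba-a1 no value. The part these cells had in the values of Scd1, Acaca and Mvd was not tested.

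Beyond the set, 51 other genes of the same pathways were measured, and none passed in edgeR. Of these, 30 were negative and 21 positive (median -0.06), with 5 lower and 1 higher at an unadjusted p under 0.05, where 4.01% and 3.94% of all genes stood. All 6 belonged to the 21 other fatty acid enzymes, of which 14 were negative (median -0.16). The smallest p was that of Acsl3, which activates long-chain fatty acids to their CoA form. It measured 359.7, 419.5, 335, 331 and 390.3 CPM in 5XFAD and 313, 297, 275, 301 and 273 CPM in cKO. The groups did not overlap. Its log2 fold change was -0.33 ± 0.08 SE (95% interval -0.49 to -0.17), with an unadjusted p of 1.57e-04 and an adjusted p of 0.0630. DESeq2 called it at an adjusted p of 0.00555. Over the edgeR alternatives its adjusted p ran from 0.0170 with a replicate block to 0.294 without 5XFAD replicate 2, on both sides of the threshold.

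Of the 51, 3 had groups that did not overlap, against 1.3% of all genes. Beside Acsl3 these were Tecr, the reductase that ends each elongation cycle (244 against 276 CPM, log2 fold change -0.18, adjusted p = 0.547), and Hsd17b12, the ketoreductase of that cycle (45.2 against 52.5 CPM, -0.22, adjusted p = 0.734). Beside Acsl3 and Tecr, genes past the unadjusted threshold were lower for Elovl1 (5.19 against 10.5 CPM), Elovl7 (-0.59) and Hacd3 (-0.24), all enzymes of chain elongation, and higher for the dehydratase Hacd2 (0.45). Their adjusted p ran from 0.288 to 0.522. Isoprenoid branch genes had 5 of 8 negative, sterol partner and turnover genes 5 of 7, and the list of SREBP turnover, partner and related genes 6 of 15.

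How reads are counted limits some genes more than others. Windows of 76 bases, tiled over the last 400 bases of each canonical transcript, were looked up in the genome. For 28 of the 34 genes every window matched at most 1 place. For Idi1, 304 of 325 windows (93.5%) matched more than 1 place, and reads with several places were set aside in the counting, which goes with its 30 reads. The 5 annotated Idi1 pseudogenes held 1 read in all. Shares were 40.0% for Fdps, 32.0% for Insig1, 12.6% for Acaca, 8.62% for Mvk and 6.46% for Mbtps1.

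**Figure D5:**
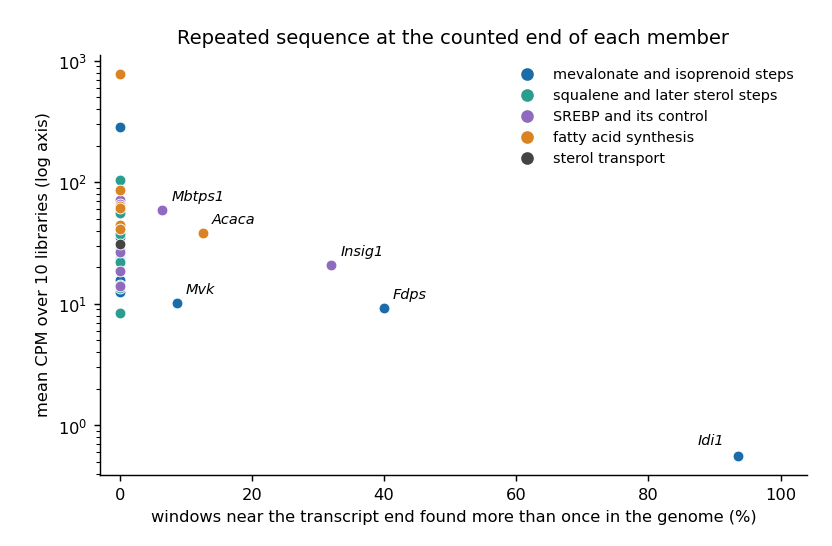
Share of 76-base windows at the end of each transcript that occur more than once in the genome (x axis, %) against the gene's mean CPM over 10 libraries (y axis, log), coloured by role. Idi1 stands alone at 93.5%, and 28 genes are at 0%.

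A gene on the opposite strand covered the counted end of 9 genes. For Cyp51 it was Akap9, with 21387 reads in all, against 4031 on Cyp51, and for Fdft1 it was Ctsb, with 15999 against 1348. Tcp1 lay over Acat2, Nim1k over Hmgcs1, Washc5 over Sqle, Rai1 over Srebf1, Ptpn23 over Scap, and Gm15343 and Gm26608, with 0 and 5 reads, over Lss and Insig1. The strand setting of the counting is not stated, so the values of these 9 genes are uncertain to that extent. Scd1, Scd2, Mvd, Acaca, Fasn, Srebf2 and Stard4 had no such partner and no gene of their own strand over their ends.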

How the data were processed

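The authors prepared QuantSeq 3′ FWD libraries, removed adapter and poly(A) sequence by bbduk, placed single reads with STAR 2.7.3a to GRCm39 and counted them per gene with HTSeq (0.9.1 in the submitters' notes). The deposited values are raw counts per gene and library, whole numbers with no normalization, and the strand setting of the counting is not stated. Reads on no gene (31.3% to 39.9% of those kept in 5XFAD and 34.4% to 38.2% in cKO) stayed out of library sizes and tests. Symbols and places came from GENCODE M39 of the same build, a later release than the authors used, which named 52610 of 53700 identifiers. Each library is 1 mouse.

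The comparison was fitted in edgeR 4.0.16 under R 4.3.3 (TMM, glmQLFit and glmQLFTest, group as the only term) over the 19268 genes with a total above 10, and p was adjusted by Benjamini-Hochberg, called at 0.05. Genes had a common biological coefficient of variation of 0.281. SE and 95% intervals came from the quasi-likelihood F. Single genes were also compared by an exact two-sided permutation test of mean log2 CPM (prior count 2) over 252 relabellings. Its p was not adjusted for the number of genes. Among the 34 it is printed only where under 0.05, and the next smallest was 0.0714 for Stard4. The method was tested on simulated data. Within-group library pairs differed by more than sampling noise (chi-square over degrees of freedom at least 5.70 in 20 pairs), so all were kept as separate.

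The genes, the pathway list and the marker lists were chosen with earlier results of these data known, so no list was tested as a whole. All 34 genes are named. Values of every library are given for those with an unadjusted p under 0.05 or groups that do not overlap, for SREBP and its direct control genes, and for the 2 most abundant of each role. Alternatives were DESeq2 1.42.0, its size factors in edgeR, filterByExpr, no filter, a robust fit, mitochondrial genes left out, a replicate block and each library left out. Scaling by library size alone, with and without mitochondrial genes, was added after seeing the data. Proteins and single nuclei were not analysed here, and some marker genes are not reported here by name.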

Additional observations from a re-analysis of the deposited data

Results flagged for a closer look

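In 68 groups of 5 libraries, 1 per gene and label, 4 had a library set apart from the rest by Dixon's test, whose ratio is the gap to the nearest library over the range of the group and whose critical value is 0.71. Chance gives about 1 in 20 such groups, or 3.4 here. Mvd in 5XFAD replicate 1 had a ratio of 0.73, at 17.3 CPM with the next library at 14.4 CPM. Nsdhl in cKO replicate 1 had 0.753, at 29.2 CPM with the next at 21.7. Sc5d in cKO replicate 4 had 0.853, at 46.6 CPM with the next at 52.9. Elovl5 in cKO replicate 5 had 0.741, at 23.0 CPM with the next at 43.6, and the group's log2 fold change for Elovl5 went from -0.15 to 0.01 without it. Without 5XFAD replicate 1 the unadjusted edgeR p of Mvd was 0.0992.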

How the results depend on the processing

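None of the 34 genes was called under any of the 19 settings run, DESeq2 and the fits that left out a library included. The median log2 fold change of the set, -0.07, turned to 0.0252 with library size alone, and that of the 19 sterol enzymes, -0.06, to 0.0331. It was -0.02 with library size alone without mitochondrial genes and ran from -0.10 to -0.04 over the fits without a library, in which 20 to 25 genes were negative. Of all genes, 42 were called with TMM (31 lower, 11 higher), 52 with library size alone (20 lower, 32 higher), 73 with DESeq2, 103 with no filter on low counts, 112 with a replicate block and 26 to 72 without a library, the lowest without 5XFAD replicate 2 and the highest without cKO replicate 1. Without cKO replicate 4 or 5 there were 27. The cause of these shifts was not tested. Of the other pathway genes 0 were called, and 1, Acsl3, under DESeq2, no filter, the robust fit and the replicate block. Without 5XFAD replicate 3, 5XFAD replicate 4 or cKO replicate 1 it was 1 as well, so the range over left-out libraries was 0 to 1. The replicate numbers showed no sign of pairing the samples: same-numbered libraries correlated between -0.0111 and 0.0186 in their deviations, and 0 of 5 matched best with its own number. Whether same-numbered mice shared a litter or a preparation was not tested. Of 690 values of single genes, 683 kept their side of the threshold, and the sign changed somewhere for 14 genes. At 52 to 106 reads per library, as for Mvd, a change of the size seen could not be told from the spread after adjustment.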
